A study of Mus musculus with 24 samples.

Results

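Livers of NZB:NZB mice were compared with livers of BL/6J:NZB mice, which carry the same NZB mitochondrial DNA (mtDNA) under a different nuclear genome. The comparison took 6 of the 24 libraries of the series, 3 from each genotype, and was chosen by genotype and tissue alone, with no measured value in the choice. Genotypes are written as nuclear genome, colon, mtDNA. NZB:NZB is the parental NZB strain. BL/6J:NZB is a conplastic line, in which 10 generations of backcrossing placed the nuclear genome of C57BL/6 mice on the mtDNA of NZB mice. The series also holds the parental BL/6J:C57 strain and the reverse conplastic line NZB:C57, and it covers liver (median lobe) and heart (left ventricle) for all 4 genotypes. Every animal was a male aged 10 weeks. There were 12 males per genotype, and polyadenylated RNA from 4 animals was mixed in equal parts per pool, so each of the 3 replicates is a pool of different animals and p-values measure the spread between pools. Library titles carry the word mix for BL/6J nuclei and rep for NZB nuclei, so the effect of any handling tied to that wording and the effect of the nucleus cannot be told apart. Since the 10 backcrosses are stated for the conplastic lines only, any remaining nuclear segment of the mtDNA donor strain in BL/6J:NZB mice was not tested.

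As background, NZB is an inbred strain known for autoimmune haemolytic anaemia and, in its crosses, a lupus-like disease, and its mtDNA differs from that of C57 mice at many positions. The nuclear genome encodes nearly all mitochondrial proteins, so the question of the series is how nuclear and mitochondrial genomes fit together, and the comparison here gives the nuclear side on 1 mtDNA. Rodent liver is strongly sexually dimorphic. The pituitary secretes growth hormone in pulses in males and more continuously in females, the hormone signals through its receptor, JAK2 and the transcription factor STAT5B, and male-biased genes such as those for major urinary proteins (MUPs, pheromone carriers made in liver) and female-biased genes such as Cyp2b9 and Cyp3a41a follow that pattern.

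Recovered read totals were 14225044, 14887187 and 17547845 in the BL/6J:NZB livers and 13022817, 12093156 and 10809960 in the NZB:NZB livers, and 768 to 860 and 610 to 744 genes were at 0 reads. Values below are normalised read counts as the authors scaled them, given as mean ± SD over 3 pools unless values of single pools are listed. Albumin, the main plasma protein of hepatocytes, was at 76831 ± 2869 and 129739 ± 3076, high in all 6 pools. The male label was met by Y chromosome genes in every pool. Ddx3y, a Y-linked RNA helicase gene, had values of 86.9, 102 and 97.2 in BL/6J:NZB and 81.7, 47.7 and 94.3 in NZB:NZB, which overlapped, and Eif2s3y had 79.2, 74.9 and 76.4 and 69.2, 63.9 and 59.5, which did not. Kdm5d was at 25.3 ± 1.85 and 22.1 ± 3.79, and Uty at 23.4 ± 0.981 and 22.03 ± 3.06. None of the 4 Y genes tested was called with limma at an adjusted p under 0.05 (1 was lower at an unadjusted p under 0.05). Eif2s3y was called lower in a fit of only the 6 libraries compared, and Ddx3y without NZB:NZB replicate 3. The mtDNA label could not be checked against mtDNA transcripts, which are not analysed here. Gm13340 (chromosome 2), a pseudogene that shares sequence with mtDNA, had 25.2, 9.28 and 8.42 in BL/6J:NZB, 18.0, 15.8 and 17.9 in NZB:NZB, 0.564 ± 0.147 in BL/6J:C57 and 11.7 ± 4.49 in NZB:C57 livers, so it was high in each genotype but BL/6J:C57 and did not separate NZB:C57 from the NZB mtDNA lines. Libraries of NZB:C57 mice stood apart in other ways. Their hearts had value sums of 1048700 to 1068800, against 643486 to 726047 in the other hearts, and over 7550 genes above 5 in every library the difference NZB:NZB minus NZB:C57 in liver ran opposite to that in heart (Pearson's r across genes -0.87, 81.0% of genes of opposite sign). The difference NZB:NZB minus BL/6J:NZB did not show this opposition (r across the same genes 0.44, 36.1% of opposite sign). Results that use NZB:C57 livers rest on those libraries, and the main comparison is also given without them.

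In all, 1663 of 12813 genes tested were higher in NZB:NZB livers (13%) and 1552 lower (12.1%), 25.1% together, at an adjusted p under 0.05 with limma. The shares of 13% and 12.1% are the background for each count of list members below. Of the genes called, 983 differed by at least 1 on the log2 scale (7.67% of genes tested). The 3 NZB:NZB pools did not overlap the 3 BL/6J:NZB pools for 5825 genes (45.5%). The median log2 difference over all genes tested was -0.0077. When library totals replaced the authors' scaling, that median became 0.094 and the split moved to 2430 higher and 1086 lower, so 69.1% of calls were higher against 51.7%. Without the NZB:C57 libraries 3156 genes were called. Log2 differences are on the log2(value + 1) scale, which understates changes of genes with low values.

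**Figure D1:**
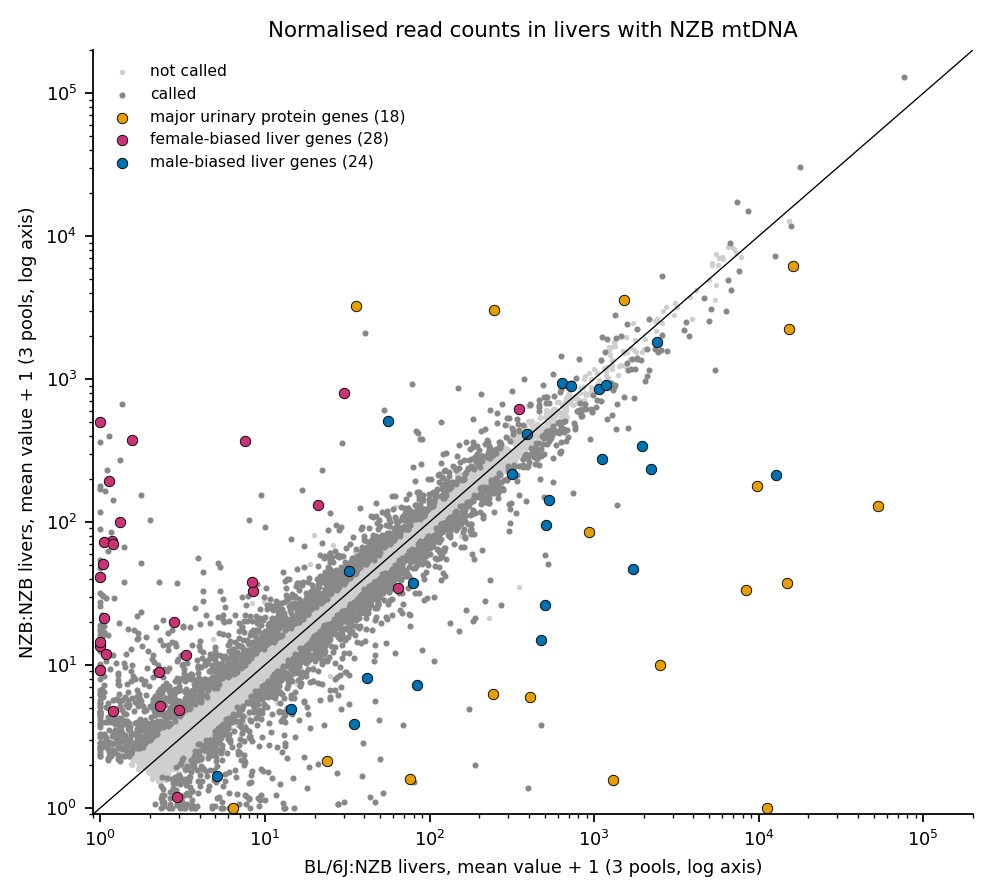
Mean normalised read count + 1 of each gene tested in BL/6J:NZB livers (x axis, log scale) and NZB:NZB livers (y axis, log scale), each point 1 gene and each mean over 3 pools. Pale and dark grey points are genes not called and called, orange points 18 MUP genes, pink points 28 female-biased genes and blue points 24 male-biased genes. Most pink points lie above the line of equal values, and most blue and orange points below it.

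Many of the genes furthest apart were those known to differ between male and female liver, although all pools came from males. Female-biased genes were higher in NZB:NZB livers. Of 34 names on this list 28 were tested, and 25 rose and 2 fell (Cyp2b10 and Cyp17a1), with a median log2 difference of 3.51 over the 28. With the 5 members at 0 reads in all BL/6J:NZB pools set to their lower bounds, that median was 4.49. The counts describe the members tested, several of which passed the filter on low values only through their level in NZB:NZB livers. Among genes with reads in all 6 libraries 15 members rose. Leaving out each library in turn gave 25 to 26. The summed level of the list was 409 to 551 in the BL/6J:NZB pools and 3186 to 3848 in the NZB:NZB pools.

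The steroid- and drug-metabolising cytochrome P450 genes stood highest. Cyp3a41a (chromosome 5, 145694049 to 145720136, minus strand) had 0 reads in all 3 BL/6J:NZB pools and values of 562, 515 and 413 in NZB:NZB. That is at least 6000.3-fold higher against a floor of 3 reads over the group (log2 difference 8.95, SE 0.71, adjusted p = 5.15e-07, limma). Nearly all of its 31-base words (99.9%) occur in other genes, foremost Cyp3a41b, and the sum of both copies was 0 in each BL/6J:NZB pool and 612, 559 and 438 in NZB:NZB. Cyp2c39 (chromosome 19, 39510862 to 39568529, plus strand) went from 0.28, 0.43 and 0.936 to 384, 370 and 362, with little spread among NZB:NZB pools (log2 difference 7.93, SE 0.13, adjusted p = 1.49e-14, limma). Cyp2b9 (chromosome 7, 26173411 to 26210661, plus strand), a classic marker of female liver, had values of 0.28, 0.172 and 0.504 in BL/6J:NZB and 105, 121 and 71.3 in NZB:NZB (log2 difference 6.22, SE 0.53, adjusted p = 1.02e-06, limma). The groups lay far apart, with replicate 3 the lowest of the NZB:NZB pools. Cyp2c69 rose from 6.58 ± 1.85 to 366 ± 82.1, 55.6-fold, and 64.9% of its words occur elsewhere, mainly in Cyp2c40. Cyp2a4, a testosterone 15-alpha-hydroxylase, rose from 0.129 ± 0.114 to 193 ± 49.8. Its near-identical neighbour Cyp2a5, chosen after its values were seen, was at 347 ± 135 and 152 ± 42.5, and the sum of both was 347 ± 135 and 345 ± 85.2, so reads may be divided differently between the copies and the summed level differed by less than the spread between pools.

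Female-biased genes of other families rose with them. Hao2 (chromosome 3, 98874521 to 98893239, minus strand), a peroxisomal hydroxyacid oxidase, had values of 0.0933, 0 and 0 in BL/6J:NZB and 54.7, 54.3 and 40.7 in NZB:NZB (log2 difference 5.61, SE 0.58, adjusted p = 8.03e-06, limma). It had 0 reads in 2 BL/6J:NZB pools, so no fold is given. A1bg (chromosome 15, 60896859 to 60923012, minus strand), which encodes a plasma glycoprotein, had 0.187, 0.258 and 0.072 in BL/6J:NZB and 77.9, 117 and 22.2 in NZB:NZB. Its NZB:NZB pools spanned a wide range, with replicate 3 the lowest, and still lay above each BL/6J:NZB pool (log2 difference 5.68, SE 0.56, adjusted p = 4.85e-06, limma). The organic anion transporter gene Slc22a26 (chromosome 19, 7781041 to 7802667, minus strand) went from 0.28, 0.0859 and 0.216 to 88.6, 59.0 and 58.0 (log2 difference 5.84, SE 0.22, adjusted p = 1.34e-10, limma). Outside the list, Akr1c18, a 20-alpha-hydroxysteroid dehydrogenase that inactivates progesterone, rose from 0.11 ± 0.0978 to 61.5 ± 10.4, 559-fold.

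The upstream sequences of A1bg and Slc22a26 are shown because both hold the STAT5-type motif TTCNNNGAA, which reads the same on both strands. They cover the 250 bases before the RefSeq transcription start in GRCm38.p6, written 5′ to 3′ on the gene's strand, with the motif in capitals. The motif begins 84 bases before the start in A1bg (chr15:60921271-60921520, minus strand) and 141 bases before it in Slc22a26 (chr19:7802668-7802917, minus strand).
A1bg: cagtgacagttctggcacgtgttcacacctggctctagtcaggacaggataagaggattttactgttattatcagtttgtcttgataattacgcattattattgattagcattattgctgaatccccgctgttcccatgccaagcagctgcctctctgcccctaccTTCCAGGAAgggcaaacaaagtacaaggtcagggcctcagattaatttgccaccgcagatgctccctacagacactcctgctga
Slc22a26: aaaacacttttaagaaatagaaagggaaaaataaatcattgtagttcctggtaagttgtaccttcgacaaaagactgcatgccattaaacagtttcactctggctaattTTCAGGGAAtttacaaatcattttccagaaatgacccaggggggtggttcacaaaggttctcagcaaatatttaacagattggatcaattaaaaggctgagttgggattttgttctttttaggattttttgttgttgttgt
In windows from 250 bases before to 50 after the start, the motif occurred in 8.3% of 32851 promoter windows and in 7.01% of the windows of genes tested. Among female-biased genes 4 of 27 windows held it (14.81%), among male-biased genes 3 of 20 (15%) and among MUP genes 0 of 12. Windows of genes called higher held it in 7.03% and those of genes called lower in 6.25%. A match describes these letters only and is no measured binding site.

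Male-biased genes were lower in NZB:NZB livers. Of 25 names 24 were tested, and 16 fell, 2 rose (Slco1a1 and C4a) and 6 did not pass the test, with a median log2 difference of -1.82, and the count of 2 was 1 without BL/6J:NZB replicate 2 or 3 or NZB:NZB replicate 2 or 3. Their summed level was 25210 to 32250 in the BL/6J:NZB pools and 6435 to 8866 in the NZB:NZB pools. Serpina1e (chromosome 12, 103946931 to 103958975, minus strand), an alpha-1-antitrypsin paralog, fell from 14992, 12996 and 10492 to 235, 204 and 198 (log2 difference -5.90, SE 0.13, adjusted p = 6.97e-13, limma). Cyp4a12b (chromosome 4, 115411624 to 115439034, plus strand), a fatty acid omega-hydroxylase, fell from 517, 459.5 and 444 to 13.3, 10.3 and 18.0, 34.1-fold. C6 (chromosome 15, 4727175 to 4814967, plus strand), a component of the membrane attack complex of complement, fell from 569.5, 530.2 and 401 to 31.1, 20.6 and 24.4 (log2 difference -4.25, SE 0.15, adjusted p = 6.34e-11, limma). For each of these 3 genes every NZB:NZB pool lay below every BL/6J:NZB pool. Elovl3, which elongates very long chain fatty acids, fell from 1715 ± 387 to 45.9 ± 14.8. The glutathione transferase gene Gstp1 fell from 2228 ± 78.6 to 232 ± 40.9 (log2 difference -3.27, SE 0.15, adjusted p = 1.02e-09, limma). Serpina1e, Cyp4a12b and Gstp1 share 54.2%, 62.9% and 38.5% of their words with other genes, while C6 shares none. Wfdc21, a small secreted protein gene outside these lists, fell from 407, 384 and 389 to 0.914, 0.197 and 0 and had the lowest value among the named genes outside the MUP cluster (log2 difference -8.22, SE 0.44, adjusted p = 6.34e-09, limma).

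Of 22 MUP names 18 genes were tested, and 15 fell and 3 rose (Mup1, Mup2 and Mup9), with a median log2 difference of -5.59 (-5.68 with the 2 members at 0 reads in 1 group at their bounds). Leaving out each library gave the same counts. The summed MUP level was 107700 to 176400 in BL/6J:NZB and 15500 to 22020 in NZB:NZB. Mup7 (chromosome 4, 60066469 to 60070475, minus strand) fell from 69758, 49483 and 39928 to 126, 88.0 and 169 (log2 difference -8.70, SE 0.27, adjusted p = 1.51e-11, limma). Mup20, known as darcin and the sex pheromone of male urine, fell from 18096, 13101 and 13213 to 34.9, 28.3 and 46.3 (log2 difference -8.64, SE 0.18, adjusted p = 2.03e-13, limma). Mup19 (chromosome 4, 61778324 to 61782269, minus strand) had values of 17232, 9101 and 7386 in BL/6J:NZB and 0 reads in all 3 NZB:NZB pools, at least 112991-fold lower against a floor of 3 reads over the group. Mup2 rose from 32.6, 31.02 and 40.3 to 3396, 2675 and 3691 (log2 difference 6.51, SE 0.27, adjusted p = 5.65e-10, limma). MUP genes are near-identical copies, with 90% of the words of Mup7 and all of those of Mup19 found in other genes, so values of single MUP genes are uncertain and the sum is less affected. The 1-Mb window from 61000001 to 62000000 of chromosome 4, inside the MUP cluster, had 12 genes tested and all 12 fell.

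**Figure D2:**
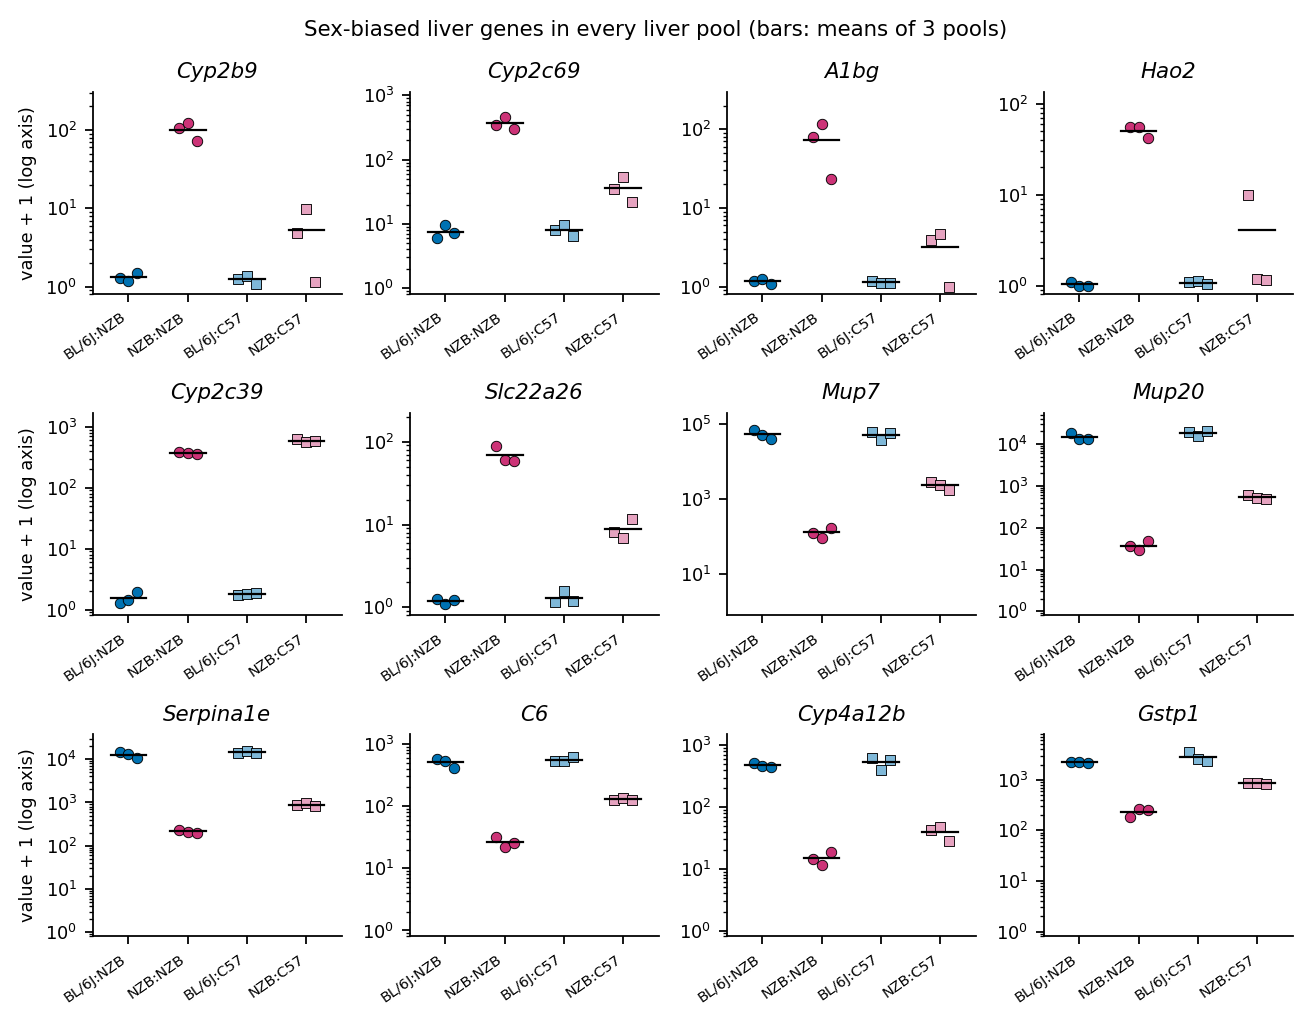
Normalised read count + 1 (y axis, log scale) of 12 sex-biased genes in each pool of the 4 liver groups, with bars at the means of 3 pools. Circles are livers with NZB mtDNA and squares livers with C57 mtDNA, blue for BL/6J and pink for NZB nuclei. In each panel the NZB:NZB circles are apart from the BL/6J:NZB circles, and Cyp2c39 in NZB:C57 pools is at 621, 566 and 588.

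Genes of the growth hormone axis were mixed. Of 17 tested, 6 rose, 3 fell and 8 did not pass the test, with a median of 0.26, against 13% and 12.1% of all genes. With the replicate block in a fit of only the 6 libraries compared, 8 fell, while the lower calls over all genes went from 1552 to 2234. Prlr (chromosome 15, 10177238 to 10349180, plus strand), the prolactin receptor and itself more abundant in female liver, rose from 111, 125 and 114 to 560.3, 471 and 461 (log2 difference 2.08, SE 0.10, adjusted p = 1.51e-09, limma). Igf1, the growth factor that liver secretes in response to growth hormone, rose from 632, 602 and 656 to 1586, 1259 and 1506, 2.30-fold, and its carrier Igfbp3 from 21.2 ± 2.27 to 69.8 ± 4.46. Igfbp2, another carrier, fell from 282, 385 and 485 to 124, 135 and 158 (log2 difference -1.44, SE 0.18, adjusted p = 4.14e-05, limma). For Prlr, Igf1 and Igfbp2 the pools of both groups did not overlap. The feedback inhibitor gene Socs2 was at 28.1, 5.24 and 22.8 in BL/6J:NZB and 137, 14.8 and 89.0 in NZB:NZB, which overlapped and was not called (adjusted p = 0.0574, limma). The growth hormone receptor gene Ghr, at 854, 743 and 757 and 737, 613 and 689, and the transcription factor gene Stat5b, at 104.5, 119 and 93.4 and 74.1, 95.7 and 87.7, were not called either (adjusted p = 0.21 and 0.0775, limma). Between pools of the same number each of these 3 genes differed in 1 direction, but the labels do not say what a number stands for.

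The same nuclear contrast can be read on C57 mtDNA, NZB:C57 against BL/6J:C57, which shares no library with the comparison above. There 1677 genes were higher (13.1%) and 1907 lower (14.9%), 3584 in all (28%). Of the 3215 genes called on NZB mtDNA, 2091 were also called in the same direction on C57 mtDNA (65% of the first and 58.3% of the second set), and 53 were called in opposite directions. The difference of the 2 contrasts was then tested. It passed for 325 genes (2.54%), 90 with a higher value on NZB mtDNA (0.702%) and 235 with a lower one (1.83%). The split was 174 and 200 under library totals, and 174 and 307 without BL/6J:C57 replicate 3. Of the 325 genes, 78 differed in the same direction on both mtDNAs and more on NZB mtDNA, 86 in the same direction and less, and 161 had opposite signs.

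Sex-biased genes were among them. Of the 28 female-biased genes 18 were called with a more positive difference on NZB mtDNA and 0 with a more negative one (2 at an unadjusted p under 0.05), and the median difference on C57 mtDNA was 0.61, with 9 higher and 2 lower. Of 24 male-biased genes 11 were called with a more negative difference on NZB mtDNA, and of 18 MUP genes 11, with medians on C57 mtDNA of -0.90 and -2.22. The summed female-biased level was 1654 to 2022 in NZB:C57 and 395 to 553 in BL/6J:C57, and the summed MUP level 42510 to 51830 and 113400 to 172800. NZB:C57 livers thus lay between BL/6J:C57 and NZB:NZB livers in both sums. Single members did not all do so. On C57 mtDNA 4 male-biased genes were called higher and 13 lower, and 3 MUP genes higher and 13 lower. The male-biased gene Slco1a1 was at 2035 ± 118 in NZB:C57, above 437 ± 143 in BL/6J:C57 and 933 ± 50.3 in NZB:NZB livers.

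Single genes differed in how far apart the nuclear differences on NZB mtDNA and on C57 mtDNA lay. Cyp2b9 had 0.264, 0.39 and 0.0796 in BL/6J:C57 and 3.92, 8.73 and 0.165 in NZB:C57, and its difference of differences was 4.59 (SE 0.75, adjusted p = 0.00236, limma). A1bg had 2.98, 3.69 and 0 and Hao2 9.01, 0.194 and 0.165 in NZB:C57, with differences of differences of 4.46 (SE 0.79) and 4.46 (SE 0.82), and Cyp3a41b reached 5.10 (SE 0.31). With edgeR none of these 4 genes passed (adjusted p from 0.354 to 0.9999), each being near 0 reads in 1 or more groups. Mup18 fell by 9.76 on NZB mtDNA and by 3.36 on C57 mtDNA on the log2 scale (difference -6.41, SE 0.39, adjusted p = 4.02e-07, limma), and Mup17, Mup21, Mup11 and Mup7 had differences of differences of -5.79, -4.53, -4.30 and -4.22. Cyp2c39, in contrast, was at 621, 566 and 588 in NZB:C57 livers, and its difference of differences of -0.44 (SE 0.18) did not pass. The pools of NZB:C57 disagreed for Cyp3a41a, with 15.1, 40.6 and 325. Cyp3a41b shares 95.9% of its words with Cyp3a41a. The sum of both was 15.1, 40.8 and 325.7 in NZB:C57 and 612, 559 and 438 in NZB:NZB livers. Reads may thus be divided differently between these copies, and the value of Cyp3a41b alone is uncertain. Because the NZB:C57 libraries stand apart as described above, the mtDNA and a property of these libraries cannot be told apart here.

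**Figure D3:**
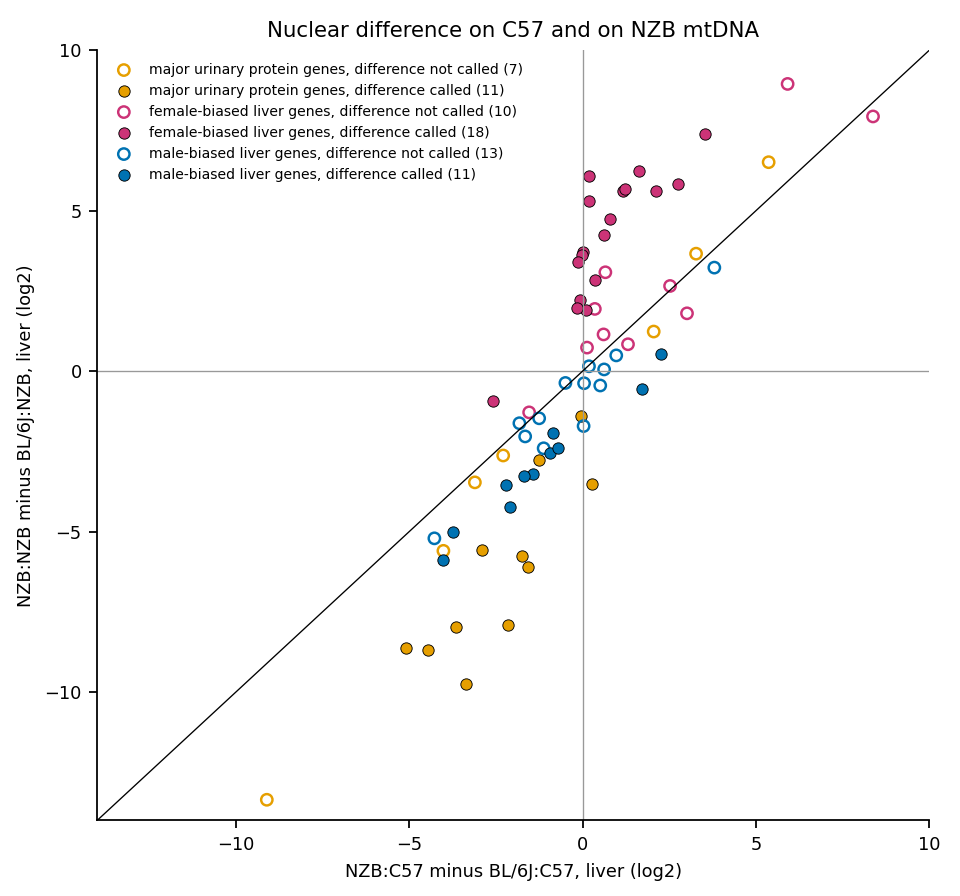
Log2 difference between nuclei on C57 mtDNA (x axis, NZB:C57 minus BL/6J:C57) and on NZB mtDNA (y axis, NZB:NZB minus BL/6J:NZB) for 18 MUP genes (orange), 28 female-biased genes (pink) and 24 male-biased genes (blue). Filled points passed the test of the difference between both axes (11, 18 and 11 genes), open points did not, and the diagonal marks equal differences. Filled pink points lie above the diagonal and filled orange and blue points below it.

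Drug-metabolising enzymes were lower more often than higher. Of 43 phase I enzymes, which oxidise or hydrolyse foreign compounds, 8 rose (18.6%) and 14 fell (32.6%), with a median of -0.21. Of 43 phase II enzymes, which attach sugars, sulfate or glutathione, 4 rose (9.3%) and 14 fell (32.6%), with a median of -0.15. Among all genes the shares were 13% and 12.1%. Aldh1a7 rose from 316 ± 18.7 to 829 ± 58.0 and the flavin monooxygenase Fmo1 from 216 ± 15.03 to 443 ± 22.6. Cyp2c67 rose from 232 ± 20.7 to 605 ± 56.96, a log2 difference of 1.38 against 3.82 on C57 mtDNA (test of the difference, adjusted p = 2.12e-06, limma). Nnmt (chromosome 9, 48591877 to 48605153, minus strand), which methylates nicotinamide, fell from 52.9, 35.5 and 39.0 to 0, 0.0983 and 0.442 (log2 difference -5.20, SE 0.64, adjusted p = 3.83e-05, limma). The glutathione transferase gene Gsta2 fell from 40.4, 44.1 and 51.8 to 4.30, 5.602 and 3.98, and Ugt1a9, a glucuronosyltransferase gene, rose from 237, 208 and 165 to 727, 814 and 821. Both share over 60% of their words with neighbouring copies (60.7% and 67.8%), while Nnmt shares none.

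Several genes of bile acid synthesis were lower, and several of cholesterol synthesis higher. Of 27 bile acid genes 7 rose (25.9%) and 12 fell (44.4%), with a median of -0.29, against 13% and 12.1% of all genes. Cyp8b1 (chromosome 9, 121914356 to 121916305, minus strand), which commits bile acids to cholic acid, fell from 458, 613 and 418 to 127, 158 and 156 (log2 difference -1.73, SE 0.20, adjusted p = 2.08e-05, limma). Cyp27a1, the sterol 27-hydroxylase, fell from 621 ± 39.5 to 301 ± 31.7 and Cyp39a1, an oxysterol 7-alpha-hydroxylase, from 13.9 ± 1.22 to 0.618 ± 0.192, 22.4-fold. Baat, which joins bile acids to taurine, fell from 295, 279.7 and 252 to 173, 171 and 170.1, while on C57 mtDNA its difference was 1.51 (test of the difference -2.19, SE 0.12, adjusted p = 1.92e-07, limma). The rate-limiting enzyme gene Cyp7a1 was not called. The 7 rises became 4 without BL/6J:NZB replicate 2 or without any 1 of the 3 NZB:NZB pools. Of 26 genes of cholesterol synthesis and uptake 12 rose (46.2%) and 1 fell (3.85%), with a median of 0.29. Squalene epoxidase, Sqle, rose from 91.5, 84.4 and 78.7 to 143, 153 and 138, Lss, which closes the sterol ring, 1.48-fold, and Insig1, which retains the SREBP activation complex in the endoplasmic reticulum, from 462 ± 27.1 to 653 ± 64.8. The 1 that fell was Sc5d, a late desaturase of the pathway, from 629.8 ± 10.0 to 363 ± 11.5.

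Fatty acid and amino acid metabolism also moved. Of 30 genes of fatty acid and triglyceride synthesis 7 rose (23.3%) and 7 fell (23.3%), against 13% and 12.1% of all genes. The stearoyl-CoA desaturase gene Scd1 fell from 5624, 7328 and 6118 to 2798, 2885 and 3218, with no overlap, and Acss2, which makes acetyl-CoA, from 311 ± 31.8 to 135 ± 13.5. Pnpla3, a lipid droplet lipase gene, rose from 1.14 ± 0.196 to 7.997 ± 1.53, 7.005-fold. Of 40 genes of fatty acid oxidation and PPAR alpha targets 4 rose (10%) and 12 fell (30%), with a median of -0.13. Pex11a, a peroxisome division gene, fell from 114 ± 9.74 to 55.0 ± 1.46, while Cyp4a31 rose from 12.3 ± 2.69 to 37.5 ± 0.323. Of 38 genes of the urea cycle and amino acid breakdown 2 rose (5.26%, Agxt and Mat1a) and 18 fell (47.4%), with a median of -0.30. Leaving out each library gave 12 to 17 lower. Qprt, which makes NAD precursors from tryptophan, fell from 133, 165 and 164 to 60.7, 64.1 and 73.5 (log2 difference -1.21, SE 0.10, adjusted p = 1.04e-06, limma), and Oat, Prodh and Cth, enzymes of ornithine, proline and cysteine metabolism, fell 1.997-, 2.06- and 1.69-fold. The urea cycle genes Cps1, Otc and Arg1 were not called.

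Nuclear genes of the respiratory chain, whose products assemble with subunits made from mtDNA, were lower or not called in complexes I and IV, with 1 exception. Of 36 nuclear subunits of complex I, the entry point for electrons from NADH, 16 fell (44.4%), with a median of -0.34. In that list 0 rose (0 at an unadjusted p under 0.05 too) and 20 were not called. Among all genes 12.1% fell and 13% rose. Ndufa13 fell from 130.3, 117 and 147 to 81.9, 75.3 and 74.1 (log2 difference -0.75, SE 0.14, adjusted p = 0.0014, limma), Ndufb3 from 69.7 ± 9.62 to 41.0 ± 4.71 and Ndufc2 from 62.5 ± 3.35 to 43.6 ± 2.37. The count of 16 was 28 with the replicate block in a fit of only the 6 libraries compared, 10 under library totals, 9 without BL/6J:NZB replicate 3, and 10 and 9 without NZB:NZB replicates 1 and 2. On C57 mtDNA 32 of the 36 were lower, in heart 28, and 0 showed a tested dependence on mtDNA (0 at an unadjusted p under 0.05). Of 14 subunits of complex IV 6 fell (42.9%) and 1 rose (7.14%), with a median of -0.32. Cox6c fell from 240.1 ± 30.9 to 159 ± 3.06. The gene that rose was Cox6a2, the heart and muscle isoform, at 0.0933, 0 and 0 and 2.65, 1.28 and 1.22, a call lost without NZB:NZB replicate 1, and heart markers are given further on. The 6 lower genes became 11 with that block, 1 under library totals and 1 to 3 when any library but BL/6J:NZB replicate 2 was left out. Of 14 subunits of complexes II and III 3 fell (21.4%) and 0 rose (0 at an unadjusted p under 0.05), with a median of -0.30. Of 15 ATP synthase subunits 2 fell (13.3%) and 1 rose (6.67%), with a median of -0.25. In a fit of only the 6 libraries 10 and 7 fell, and with that block 11 and 8. Leaving out each library gave 2 to 3 and 0 to 4 lower. Of 77 mitochondrial ribosomal proteins 9 fell (11.69%), near the 12.1% of all genes, with 15 under that block, 5 under library totals and 5 without NZB:NZB replicate 1 or 2. Nnt, the transhydrogenase that supplies mitochondrial NADPH, is known to carry a deletion in C57BL/6J mice. It was at 156, 160.4 and 155 in BL/6J:NZB and 192, 203 and 191 in NZB:NZB livers (log2 difference 0.31, SE 0.071, adjusted p = 0.00566, limma). In hearts Nnt was at 846, 889 and 918 in BL/6J:NZB and 773, 776 and 814 in NZB:NZB. Its transcripts were thus present with both nuclei, and whether BL/6J:NZB mice carry the deletion was not tested. Cox7a2l, a supercomplex assembly factor, fell from 113, 119.6 and 118 to 95.8, 92.5 and 97.2 (log2 difference -0.29, SE 0.075, adjusted p = 0.0114, limma). That call was lost under library totals and without NZB:NZB replicate 2.

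Several very large differences were mirrored by a processed pseudogene, a copy of a gene's mRNA inserted elsewhere in the genome. Ndufs5, a complex I subunit, fell from 75.1, 71.4 and 91.1 to 0.274, 0.491 and 0.774, while BC002163, whose sequence is nearly that of Ndufs5, had 0 reads in BL/6J:NZB and 53.5 ± 4.47 in NZB:NZB. Rps2, a protein of the small ribosomal subunit, fell from 455, 454 and 511 to 3.20, 2.36 and 2.76, while its pseudogene Rps2-ps13 went from 0.124 ± 0.215 to 397 ± 12.8. Stretches of 90 coding bases of both pairs are shown because the few differing bases, in capitals, are those by which the copies can be told apart. They come from GENCODE vM21 transcripts of GRCm38, 5′ to 3′. Over all coding bases aligned without a gap, Ndufs5 (chr4:123712710-123718202, minus strand) and BC002163 (chr16:42955631-42955949, plus strand) differ at 2 of 318 bases (99.4% identity), and Rps2 (chr17:24718116-24721929, plus strand) and Rps2-ps13 (chrX:52898588-52899469, plus strand) at 7 of 879 (99.2%).
Ndufs5: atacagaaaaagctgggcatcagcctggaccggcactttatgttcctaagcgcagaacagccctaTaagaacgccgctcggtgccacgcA
BC002163: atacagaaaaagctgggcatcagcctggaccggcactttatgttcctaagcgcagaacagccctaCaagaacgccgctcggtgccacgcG
Rps2: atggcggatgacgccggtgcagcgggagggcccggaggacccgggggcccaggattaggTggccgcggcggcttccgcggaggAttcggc
Rps2-ps13: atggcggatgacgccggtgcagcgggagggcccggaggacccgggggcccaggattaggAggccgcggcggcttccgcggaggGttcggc
The sum of a pair moved far less than either member. It was 79.2 ± 10.5 and 54.0 ± 4.22 for Ndufs5 and BC002163, and 474 ± 32.6 and 400.2 ± 12.5 for Rps2 and Rps2-ps13. The glycolytic gene Pgk1 fell from 504 ± 36.3 to 57.5 ± 7.68 while Pgk1-rs7 went from 0 to 363 ± 8.91, and their sum was 504 ± 36.3 and 420.4 ± 16.5.

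Of 186 processed pseudogenes tested 62 were called (33.3%), 53 higher and 9 lower. Of the 52 higher ones that share words with a coding gene, 30 had that gene called lower, and for 0 lower ones was it called higher. Of 74 cytosolic ribosomal proteins 10 fell (13.5%) and 2 rose (2.7%), against 12.1% and 13% of all genes, and 8 of the 10 (Rpl21, Rpl26, Rpl29, Rpl35a, Rplp0, Rps18, Rps2 and Rps7) had a pseudogene called higher. Of 37 genes of glycolysis and gluconeogenesis 9 fell and 1 rose, with such a pseudogene for 2 of the 9. Among the falls in complexes I and IV given above, 1 of 16 (Ndufs5) and 1 of 6 (Cox7a2l) had such a pseudogene. The 2 ribosomal rises became 7 under library totals and 1 with the replicate block, without BL/6J:NZB replicate 2 or without NZB:NZB replicate 1 or 2, and the 1 glycolytic rise became 2 with the block. Eno1, the enolase gene, fell from 519.6 ± 48.3 to 142 ± 7.39, Eno1b, a copy of it, went from 0 to 116 ± 5.87, and their sum was 519.6 ± 48.3 and 257 ± 7.12. Tpi1 and Pdk1 fell 1.36- and 3.37-fold. The sum of Cox7a2l and its pseudogene Gm6969 was 118 ± 3.40 and 118 ± 5.71, a difference within the spread between pools. The reference genome GRCm38 is of a C57BL/6J mouse, and the part of NZB sequence differences in how reads were assigned was not tested.

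**Figure D4:**
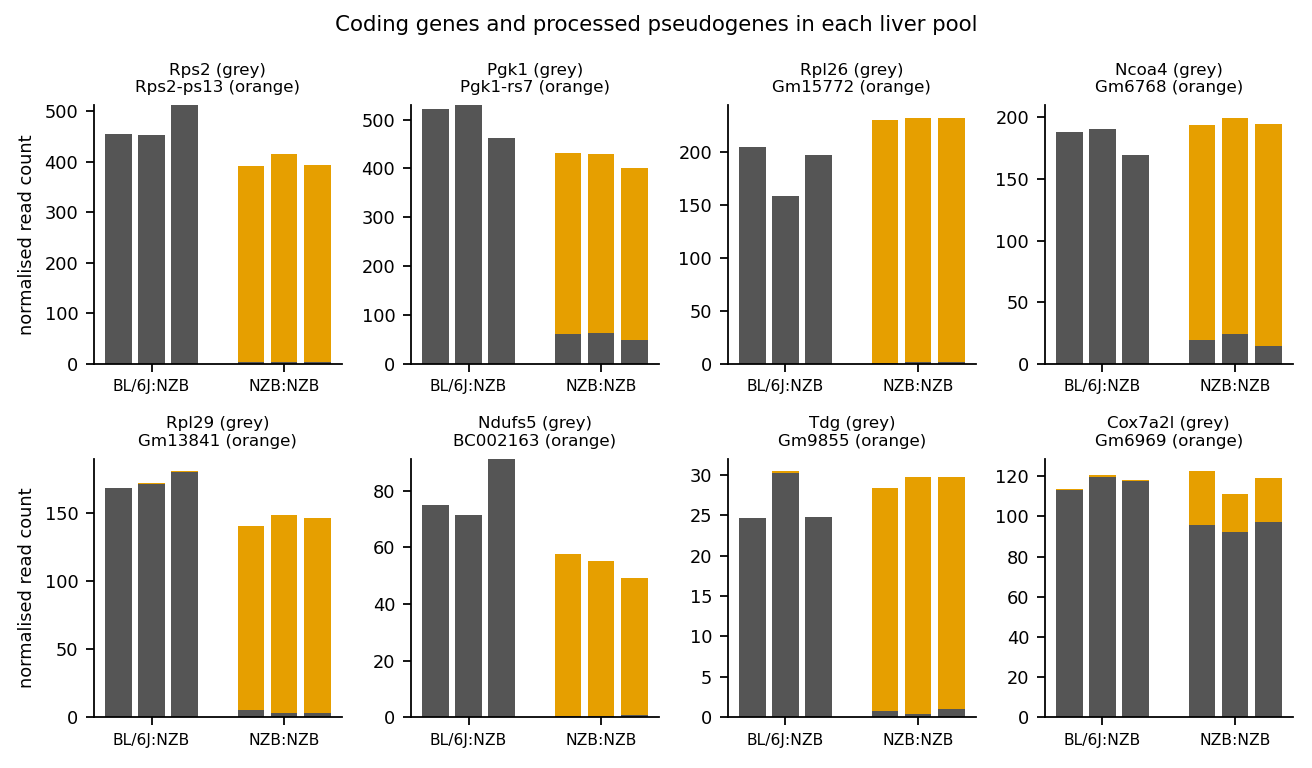
Normalised read counts of 8 coding genes (grey) and their processed pseudogenes (orange), stacked, in each of the 3 BL/6J:NZB and 3 NZB:NZB liver pools (1 bar per pool). The bars are grey in BL/6J:NZB and mostly orange in NZB:NZB, while their heights differ far less, as for Rps2 with sums of 474 ± 32.6 and 400.2 ± 12.5. The pair of Cox7a2l and Gm6969 shows a smaller orange share.

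Genes of the major histocompatibility complex (MHC), which differ between strains in sequence, were lower more often than higher. Of 24 genes of class I presentation 13 fell (54.2%) and 4 rose (16.7%), with a median of -0.33, against 12.1% and 13% of all genes. With the replicate block in a fit of only the 6 libraries compared 7 rose. H2-K1 (chromosome 17, 33996017 to 34000347, minus strand), a classical class I gene, fell from 1304, 1355 and 1476 to 127, 124 and 141 (log2 difference -3.39, SE 0.09, adjusted p = 3.27e-12, limma). H2-T22 fell from 133 ± 7.90 to 18.5 ± 1.04 while its neighbour H2-T10 rose from 4.18 ± 1.32 to 50.4 ± 2.70, and their sum was 137 ± 8.73 and 68.9 ± 2.71. Of 10 class II genes 4 fell (40%) and 1 rose (10%). H2-Aa fell from 30.03, 26.4 and 26.8 to 8.23, 6.39 and 7.96 and H2-Ab1 from 25.7 ± 1.07 to 6.89 ± 0.96. H2-Ea-ps, annotated as a pseudogene and known to be disrupted in C57BL/6 mice, had 0 reads in all BL/6J:NZB pools and 12.2, 9.93 and 12.1 in NZB:NZB, at least 138-fold higher. H2 genes share words with each other (22.8% for H2-K1), so their single values carry that uncertainty. The part of NZB sequence differences from the C57BL/6J reference in these values was not tested either.

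The chromosome 1 interval of NZB lupus genes held changes in both directions. Of 26 names 18 were tested, and 4 rose and 7 fell, or 4 fell with a filter of at least 5. Ifi202b (chromosome 1, 173962568 to 173982744, minus strand), an interferon-inducible gene long described as high in NZB, had 0 reads in all BL/6J:NZB pools and 14.0, 11.99 and 11.8 in NZB:NZB, at least 152-fold higher (log2 difference 3.76, SE 0.19, adjusted p = 3.26e-09, limma). Mndal fell from 10.1 ± 2.10 to 0.609 ± 0.251 and Ifi204 from 12.2 ± 4.49 to 3.45 ± 0.337. In the 1-Mb window from 173000001 to 174000000, 12 of 14 genes tested were called, 2 higher and 10 lower. Fcgr2b, the inhibitory IgG receptor, was at 37.2, 31.3 and 28.1 and 55.9, 49.1 and 52.2 (log2 difference 0.69, SE 0.19, adjusted p = 0.0174, limma), a call lost without BL/6J:NZB replicate 2 or 3 or NZB:NZB replicate 1. Interferon-stimulated genes, read against this interval, were lower more often than higher. Of 49 genes 12 were lower (24.5%) and 2 higher (4.08%), with a median of -0.074, against 12.1% and 13% of all genes. Under library totals or in a fit of only the 6 libraries 6 were higher. The transcription factor gene Irf7 fell from 73.0, 74.2 and 81.0 to 37.3, 38.1 and 42.0 and Oasl1 from 29.2 ± 3.72 to 11.1 ± 2.97. The 12 became 5 and 7 without BL/6J:NZB replicate 1 or 2, and 6 and 7 without NZB:NZB replicate 1 or 3.

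Plasma protein genes were mixed. Of 29 complement genes 5 rose (17.2%) and 11 fell (37.9%), against 13% and 12.1% of all genes. Hc, which encodes C5, fell from 1704, 1716 and 1409 to 459, 440.1 and 458 (log2 difference -1.82, SE 0.13, adjusted p = 1.88e-07, limma), and Cfhr2, a factor H-related gene, from 742 ± 45.9 to 159 ± 9.69. Mbl2, a mannose-binding lectin, rose from 268, 272 and 284 to 681, 674 and 662 (log2 difference 1.29, SE 0.072, adjusted p = 1.09e-08, limma). The 11 became 6 or 7 under library totals and without BL/6J:NZB replicate 1 or 2 or NZB:NZB replicate 2, and the 5 became 2 or 3 without any library but BL/6J:NZB replicate 2. Of 21 coagulation genes 6 rose (28.6%) and 2 fell (9.52%), and 10 rose and 0 fell under library totals. F7 rose from 108 ± 7.76 to 162 ± 2.07. Rises there were 3 without BL/6J:NZB replicate 2 or any 1 NZB:NZB pool. The acute phase pentraxin gene Apcs rose from 112, 81.7 and 74.8 to 433, 345 and 366, and the corticosteroid-binding globulin gene Serpina6 from 78.1 ± 9.60 to 239.8 ± 15.6, a log2 difference of 1.61 against 4.06 on C57 mtDNA (test of the difference, adjusted p = 1.62e-07, limma). The apolipoprotein gene Apol9a fell by 1.57 on NZB mtDNA and had 0.18 on C57 mtDNA (test of the difference -1.75, SE 0.16).

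Iron and red cell genes were among the changes. Hamp (chromosome 7, 30942368 to 30944032, minus strand), which encodes the iron hormone hepcidin, fell from 488, 443 and 648 to 47.7, 28.8 and 73.0 (log2 difference -3.45, SE 0.27, adjusted p = 4.79e-07, limma), while its paralog Hamp2 rose from 62.4, 64.4 and 105 to 974, 788 and 983 (log2 difference 3.59, SE 0.23, adjusted p = 5.9e-08, limma). They share 33.7% of the words of Hamp, and their sum was 603 ± 131 and 965 ± 129. The transferrin receptor gene Tfrc rose from 38.0 ± 5.73 to 91.3 ± 26.5. Of 17 iron genes 5 rose and 5 fell, with rises of 3 without NZB:NZB replicate 1 or 3 or any 1 BL/6J:NZB pool, and falls of 3 without BL/6J:NZB replicate 2 or 3 or NZB:NZB replicate 1 or 2. Among 6 erythroid markers tested, Alas2, the erythroid haem synthesis enzyme on chromosome X, fell from 196, 193 and 176 to 14.9, 22.8 and 23.2 (log2 difference -3.17, SE 0.16, adjusted p = 4.8e-09, limma), and the globin gene Hba-a1, which shares 75.5% of its words with Hba-a2 and other genes, rose from 184 ± 17.6 to 521 ± 125. Among 5 B and plasma cell markers the immunoglobulin genes Ighm, Igkc and Jchain rose, Ighm from 5.32, 7.56 and 7.85 to 27.3, 29.98 and 29.97 (log2 difference 1.94, SE 0.15, adjusted p = 2.96e-07, limma), and Cd22 fell from 1.98 ± 0.412 to 0.686 ± 0.199. In bulk tissue, fewer cells of a type and less RNA per cell cannot be told apart.

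Clock genes moved in both directions. Of 19 tested, 7 rose and 5 fell. The repressor gene Per3 was at 2.98, 1.46 and 8.64 in BL/6J:NZB and 27.3, 36.5 and 32.2 in NZB:NZB (log2 difference 2.85, SE 0.41, adjusted p = 0.000187, limma), and Per2 rose from 10.7 ± 1.83 to 27.0 ± 3.96. Cry1 fell from 36.8, 33.5 and 19.1 to 7.86, 8.85 and 7.08, and Nfil3, which opposes Dbp at shared target sites, from 66.6 ± 14.7 to 22.2 ± 3.19. BL/6J:NZB replicate 3 was the highest of its group for Per3 and the lowest for Cry1. Without BL/6J:NZB replicate 1 or 2 the 7 became 4, and without either of these or NZB:NZB replicate 2 the 5 became 3. No label gives the hour of dissection.

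Most genes of cell division were higher. Of 35 tested 29 rose and 0 fell (0 at an unadjusted p under 0.05 too), with a median of 1.46, and leaving out each library gave 27 to 29. With a filter of at least 5 in 3 libraries 19 rose. Mki67 (chromosome 7, 135689784 to 135716361, minus strand), the marker of cycling cells, rose from 4.48, 2.66 and 2.38 to 46.5, 53.1 and 31.7 (log2 difference 3.43, SE 0.28, adjusted p = 6.1e-07, limma). Kif20a, a kinesin of cytokinesis, rose from 1.19 ± 0.0328 to 17.3 ± 3.09, Cdc20, an activator of the anaphase-promoting complex, from 0.900 ± 0.137 to 14.7 ± 4.36, and Ect2 from 1.56 ± 0.203 to 12.8 ± 1.91. The summed level of the list was 214 to 228 in BL/6J:NZB, 446 to 562 in NZB:NZB, 222 to 256 in BL/6J:C57 and 336 to 358 in NZB:C57 pools. On C57 mtDNA 24 of the 35 rose, with a median of 0.74, and in heart 23 rose.

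Transcripts of heart muscle were present in NZB:NZB liver pools. Of 17 cardiomyocyte markers 13 were tested and 12 rose. All of the 13 but Csrp3 were under 1 in every BL/6J:NZB pool, 5 of them at 0 reads, and so passed the filter on low values only through other livers. With a filter of at least 5 in 3 libraries 3 rose, and 4 among genes with reads in all 6. Myh6, the alpha-myosin heavy chain of the heart, had 0 reads in the BL/6J:NZB pools and 42.3, 23.9 and 13.2 in NZB:NZB, against 8397 in NZB:NZB hearts. The sum of the 12 was 1.12 to 1.94 in BL/6J:NZB and 190.5, 102 and 56.3 in NZB:NZB livers, and in NZB:C57 livers it was 1.65, 176 and 133. The rise of each of the 12 was 0.199% to 1.06% of its level in NZB:NZB hearts, with a median of 0.311%. For the cell division genes this share was 38.4% to 442%, and 26 of the 29 that rose were above their own level in NZB:NZB hearts. Mki67, for example, was at 21.1 in those hearts.

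Some matrix and sinusoidal cell genes rose, and the others were mostly not called. Of 35 extracellular matrix genes 17 rose and 1 fell, with a median of 0.60. The basement membrane genes Col4a2 and Lamc1 rose from 34.98, 34.6 and 30.5 to 81.7, 76.9 and 71.9 and from 17.5 ± 1.47 to 39.2 ± 1.26, and Col5a2 rose 2.78-fold. The 1 that fell was Col5a3, from 59.6, 62.0 and 83.3 to 1.74, 2.75 and 3.87 (log2 difference -4.22, SE 0.23, adjusted p = 9.17e-09, limma). Of 19 stellate cell and fibroblast markers 7 rose, 12 were not called and 0 fell, with a median of 0.38. The collagen genes Col1a2 and Col3a1 rose from 11.2 ± 1.26 to 26.1 ± 3.14 and from 30.2 ± 5.96 to 64.6 ± 7.90, and Reln, made by stellate cells, from 40.3 ± 7.11 to 72.5 ± 4.70. Of 22 endothelial markers 8 rose, 14 were not called and 0 fell, with a median of 0.39. On C57 mtDNA 0 rose, with a median of 0.004. The test of the difference between both mtDNAs, however, called 0 of the 22 (4 higher at an unadjusted p under 0.05). Stab2, a scavenger receptor of liver sinusoids, rose from 60.7, 53.2 and 46.1 to 97.9, 87.9 and 95.6 (log2 difference 0.81, SE 0.16, adjusted p = 0.00169, limma) and the lymphatic and sinusoidal receptor gene Flt4 from 17.1 ± 1.31 to 29.5 ± 2.16. The 8 became 13 with the replicate block in a fit of only the 6 libraries compared, 4 without BL/6J:NZB replicate 2, 3 without its replicate 3, and 4 without NZB:NZB replicate 1 or 3. As shares of the level in NZB:NZB hearts, the rises had medians of 7.97% for matrix, 4.52% for stellate and 9.28% for endothelial genes, and the part of heart RNA in these rises was not tested. Stab2 and Reln were above their heart levels. Of 19 hepatocyte markers 4 rose and 1 fell, among them Ahsg, the plasma protein fetuin-A, from 7400.5 ± 730.2 to 17346 ± 436, but the 1 fall was lost with the replicate block and whichever library was left out. Of 18 macrophage and Kupffer cell markers 3 rose (16.7%) and 1 fell (5.56%), near the shares of all genes. The one that fell was Clec4f, a lectin of Kupffer cells, from 100.3 ± 17.6 to 58.9 ± 8.03.

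**Figure D5:**
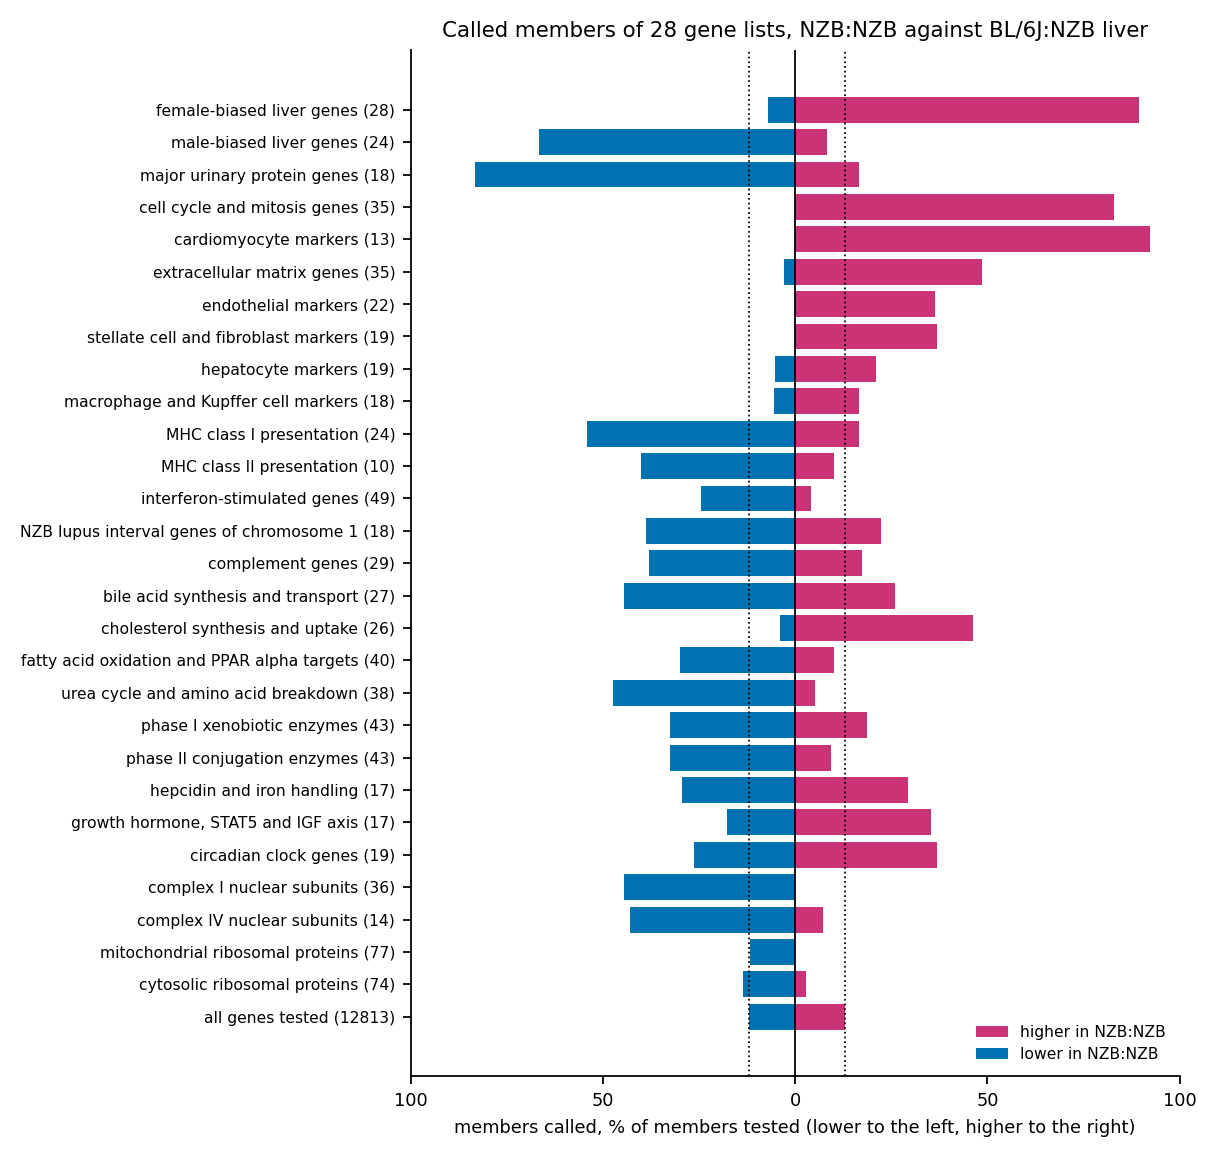
Share of the tested members of 28 gene lists that were called higher (pink, to the right) or lower (blue, to the left) in NZB:NZB against BL/6J:NZB livers, with the number tested in brackets. The bottom bar and dotted lines give the 13% higher and 12.1% lower of all 12813 genes tested. Female-biased, cell cycle and cardiomyocyte lists extend furthest to the right and male-biased and MUP lists furthest to the left. All of the tested cardiomyocyte markers but Csrp3, and several female-biased genes, passed the filter on low values only through NZB:NZB livers. With a filter of at least 5 in 3 libraries 3 cardiomyocyte and 19 cell cycle genes rose. Among genes with reads in all 6 libraries 15 female-biased genes rose.

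Hearts of the same genotypes gave a second reading of the nuclear contrast. In heart 2726 of the 12813 genes were called (21.3%). Of the 3215 genes called in liver, 1041 were called in the same direction in heart (32.4% of liver calls and 38.2% of heart calls) and 143 in the opposite direction. Whether both organs of a genotype came from shared animals is not stated, and the fit took their pools as unrelated. The difference between tissues passed the test for 1940 genes (15.1%), 1015 higher in liver (7.92%) and 925 lower (7.22%). Among the 5 highest and 5 lowest were Cyp3a41a, Cyp2c39, Cyp2a4, Mup2 and Cyp2b9, with values of 8.73, 7.85, 7.39, 6.5 and 6.22, and Mup19, Mup18, Mup17, Mup11 and Wfdc21, with -13.91, -10.73, -9.26, -8.36 and -8.05. In hearts the means of these 10 genes were at most 17.1, the value of Mup19 in NZB:NZB hearts. Those heart pools were at 0, 17.7 and 33.5 for Mup19, which had 0 reads in NZB:NZB livers. Mup11, Mup17 and Mup18 were likewise at 0 in NZB:NZB heart replicate 1 and above 0 in replicates 2 and 3. The source of these heart reads was not tested. With edgeR the tissue difference of Cyp3a41a, Cyp2a4 and Cyp2b9 did not pass (adjusted p of 0.532, 0.437 and 0.400). Some differences were called in both tissues. H2-K1 had a difference of -2.24 in heart, Ifi202b of 3.82, H2-Ea-ps of 3.23, Ndufs5 of -6.36 and Hamp2 of 4.11, each called with limma (adjusted p = 4.86e-13 for H2-K1 and 6.19e-18 for Ndufs5). Igf1 rose in heart too (1.03), and its tissue difference of 0.17 did not pass (adjusted p = 0.583, limma). Scd1 had opposite signs, -1.09 in liver and 2.48 in heart (tissue difference -3.57, adjusted p = 4.13e-07, limma).

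Called genes lay on every chromosome with tests except Y (0 of 6), from 18.7% of those tested on chromosome X to 28.6% on chromosome 4.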

How the data were processed

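The members, gene lists and tests were chosen with earlier results of these data known. The deposited values are a signal that the authors made from read counts by a scaling per library. In each library they are whole multiples of 1 constant within 0.01 for 100% of values, so whole reads were recovered for depth and for the count tests. Per the submitters' processing notes, the tools were cutadapt 1.2.1, Bowtie2 2.0.6, RSEM 1.2.3 and edgeR with genome build GRCm38, and their settings are not given in the sources used here. Because the values are normalised and not counts, limma was used in place of the planned edgeR test. Of 15323 genes, 12813 reached 1 or more in 3 or more of the 6 libraries and were tested with limma 3.58.1 (trend) in R 4.3.3 on log2(value + 1), in 1 fit of 12 livers with 4 groups, or of 24 libraries for the tissue difference, with Benjamini-Hochberg adjustment at 0.05. The functions were tested on simulated data. No row was blank or a total, and the mtDNA genes are not analysed here.

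Alternatives were edgeR 4.0.16 and DESeq2 1.42.0 on recovered reads, library totals, TMM and median centring, other pseudocounts and filters, leaving out each library, and a replicate block. The block in a fit of only the 6 libraries compared, and the count over genes with reads in all 6, were added after seeing the data. The labels do not say what a replicate number stands for. Same-numbered pools of the 2 groups deviated together (correlations of 0.197, 0.155 and 0.164, against -0.119 to -0.0425 for different numbers). Deviations were taken from means of 3 pools, so positive values for the same number bring negative ones for different numbers. The main fits hold no block, and a block that pairs the numbers was run as an alternative. Of 50 lists with 1278 names, 1223 were in the table. Named genes were the 12 highest and 12 lowest called genes with no overlap of pools, without predicted models and pseudogenes, the 4 list members at most with the lowest p among those called, 5 a direction for each dependence test, and a few fixed genes, 197 in all. A few of them are not reported here. Pseudogene partners, Cyp2a5, Gm13340, the values of Cyp2c40, and list members named only for their direction were added after their values were seen. Symbols and positions came from GENCODE vM21, and 15106 genes had one. No protein sequence was used here. Pools hold 4 animals each, no 2 replicates agreed within sampling noise, and the RNA integrity number was at least 7.9. Fold changes against a group at 0 use a floor of 3 reads over the group. Shared sequence was counted in 31-base words of the transcripts.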

Additional observations from a re-analysis of the deposited data

Results flagged for a closer look

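The difference between nuclei depended on the mtDNA for 325 genes by the test of the difference itself, in livers. The lowest values (log2, NZB mtDNA minus C57 mtDNA) were those of Mup18 at -6.41, Mup17 at -5.79, Mup21 at -4.53, Mup11 at -4.30 and Mup7 at -4.22. MUP genes are near-identical copies, so these single values are uncertain, and their summed level differed less. That sum was 135900 ± 35920 in BL/6J:NZB and 18800 ± 3263 in NZB:NZB livers. On C57 mtDNA it was 146400 ± 30250 in BL/6J:C57 and 47340 ± 4668 in NZB:C57 livers. The highest reported here were those of Cyp3a41b at 5.10, Cyp2b9 at 4.59, A1bg at 4.46 and Hao2 at 4.46. Cyp3a41b shares 95.9% of its words with Cyp3a41a, so its single value is uncertain too. All these values rest on the NZB:C57 livers, and the part of those libraries in the dependence was not tested.

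The difference between nuclei depended on the tissue for 1940 genes by the same kind of test. The lowest values (log2, liver minus heart) were those of Mup19 at -13.91, Mup18 at -10.73, Mup17 at -9.26, Mup11 at -8.36 and Wfdc21 at -8.05. The highest were those of Cyp3a41a at 8.73, Cyp2c39 at 7.85, Cyp2a4 at 7.39, Mup2 at 6.5 and Cyp2b9 at 6.22. Cyp3a41a, Cyp2a4 and the MUP genes share much of their sequence with other copies, so their single values are uncertain.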

How the results depend on the processing

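The total of genes called in each of the 3 comparisons stayed within 1.5 times its value under every alternative run, but the 90 higher calls of the mtDNA dependence became 174 under library totals and without BL/6J:C57 replicate 3. The liver comparison, with 3215 genes, ranged from 2397 to 4596. Leaving out each library gave 2397 to 2758 for it, 259 to 481 for the mtDNA dependence (481 without BL/6J:C57 replicate 3) and 1557 to 1786 for the tissue dependence. With edgeR the 3 counts were 3210, 297 and 1516, and with DESeq2 3142, 390 and 1547. With the replicate block they were 3160, 311 and 1894. Under the block 5 named genes lost their call: Cyc1 (-0.31, adjusted p = 0.0568), Tfb2m (-0.28, 0.0569), Tk2 (-0.42, 0.0591), Hp (-0.92, 0.0616) and Apoh (0.31, 0.0661). The block changed no other call of a named gene in the fit of 12 livers. In a fit of only the 6 libraries it gave 4596 genes. Uty, not called, changed sign under library totals (0.019) and without NZB:NZB replicate 2 (0.016), within a range of -0.18 to 0.016 over the libraries left out. The cause was not tested. Library totals also moved the split to 2430 higher and 1086 lower. With edgeR the mtDNA dependence was not called for Hao2 (4.75, adjusted p = 0.806), A1bg (4.61, 0.636), Cyp2b9 (4.04, 0.354) and Cyp3a41b. Depth limits genes near 0 reads, for which a group of 3 pools at 0 allows up to 3 reads.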
